A study of Mus musculus with 4 samples.

Results

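The genes described here are 49 ligands, receptors and secreted modulators of the WNT pathway with the transcription factor Lef1 and the scaffold protein Axin2, out of 19938 genes measured in visceral and parietal mesothelium of the mouse. They were taken from a list of pathway members, and a gene was read from the array row annotated with that symbol alone, or from the row with the highest mean signal where there were several. All 49 were found, 19 of them ligands, 10 Frizzled receptors, 2 Ror receptors, 9 secreted antagonists, 4 R-spondins and 3 Lgr receptors of the R-spondins. RNA came from visceral mesothelium of the omentum, on 2 arrays, and from parietal mesothelium teased off the skeletal muscle of the body wall, on 2 arrays. All tissue was untreated and came from adult mice with the genotype Wt1-cre;Rosa26ReYFP on a c57bl/6 background, in which Cre expressed from the Wt1 gene switches on a yellow fluorescent reporter in cells that express Wt1, a mesothelial marker, and in their descendants. The RNA was that of the native tissue pieces, with no sort on the reporter described. Judging by the reporter, the authors put nearly all of the input down to mesothelial cells. Replicate arrays are labelled as biological, but the animals behind them are not named, so that the p-values cover only array-to-array spread, which may be technical in part.

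WNT proteins are secreted, lipid-modified ligands that bind Frizzled receptors. Together with the co-receptors Lrp5 and Lrp6 they stabilize beta-catenin, which enters the nucleus and acts with transcription factors of the Tcf and Lef family, while other WNT signals run through Ror receptors or the proteins of planar cell polarity. Sfrp proteins, Frzb and Wif1 bind the ligands outside the cell, Dkk1 and Dkk2 act on the co-receptors, and R-spondins, which bind Lgr receptors, keep Frizzled receptors on the cell surface by restraining the ligases that remove them. In tissues that arise beside the coelomic lining, Wnt4 is known from the development of the kidney and gonad and Rspo1 from that of the ovary.

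The values are log2 signals of Affymetrix Mouse Gene 1.0 ST arrays, normalized by the authors with RMA, which corrects the background, gives the arrays the same distribution and summarizes the probes of a transcript. A signal depends on the probe sequences, so levels of expression are compared between tissues and never between genes. Where genes are set against the median signal of all genes, this concerns their array signal and not their expression. The markers of mesothelium were present on every array, with a mean log2 signal over 9 genes of 11.55 to 11.75 in visceral and 12.38 to 12.54 in parietal mesothelium. Wt1 was called with a visceral excess and 4 of the other 8 with a parietal excess. Markers of some other cell types differed between the tissues. The mean over 8 skeletal muscle genes was 7.21 to 7.22 in visceral and 12.53 to 12.90 in parietal mesothelium, with all 8 higher in parietal, and the mean over 7 macrophage genes was 10.77 to 10.78 in visceral and 8.63 to 8.69 in parietal mesothelium, with all 7 higher in visceral. The smooth muscle list of 5 held 3 genes with a visceral and 1 with a parietal excess, and the B cell list of 4 held 3 with a visceral excess. The part of these cells in the differences below was not tested. In such bulk RNA, fewer cells of a type and less RNA per cell cannot be told apart.

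The visceral mesothelium had more of the ligands Wnt2 and Wnt4, the receptors Fzd1, Fzd3 and Ror1, and Dkk3, listed with the antagonists. It also had more of the agonist Rspo3, the R-spondin receptor Lgr5 and the feedback gene Axin2. The parietal mesothelium had more of the antagonists Sfrp1, Sfrp2 and Sfrp4, the receptors Fzd4 and Fzd7, the R-spondin receptor Lgr4, and the ligand Wnt7b. These 16 genes, 9 with a visceral and 7 with a parietal excess, were called by limma at a Benjamini-Hochberg adjusted p under 0.05 over all genes and a fold of at least 1.5. That is 32.7% of the 49, where 9.6% of all genes were called (5.22% higher in visceral and 4.39% higher in parietal). The members were chosen with earlier results of these data known, so these shares are not a test of the family. The folds of the called genes lay between 1.58 and 5.60, and 9 of them reached 2. The median log2 difference, visceral minus parietal, was -0.09 over the 49 genes and 0.00 over all genes. Of the 49 differences, called or not, 19 were towards visceral and 30 towards parietal mesothelium. Its median absolute difference was 0.26, against 0.14 over all genes. The arrays of the tissues did not overlap for 37 of the 49 (75.5%), and for 56.3% of all genes. With a fold of at least 1.5 in addition, it held for 16 of the 49 (32.7%) and 10.3% of all genes.

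**Figure D1:**
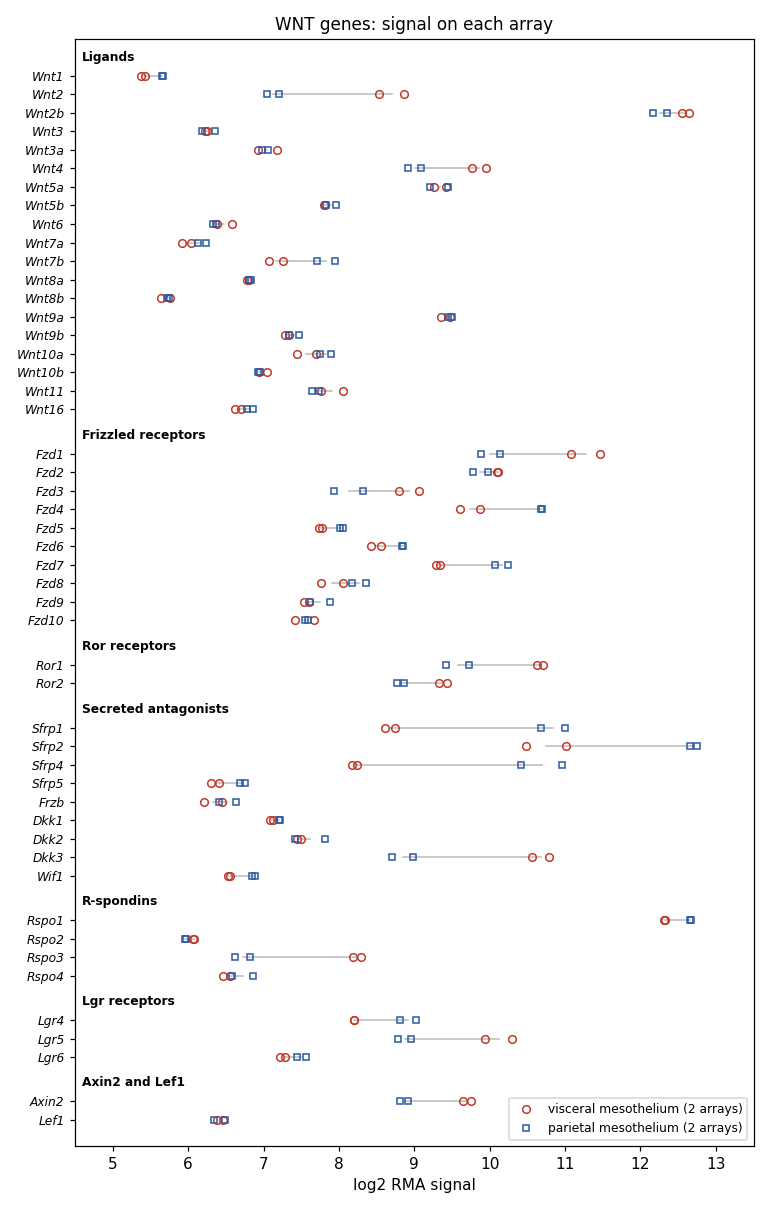
Log2 RMA signal (x axis) of the 49 WNT genes (y axis, by class); circles are the 2 visceral and squares the 2 parietal arrays, and grey lines join the tissue means. Sfrp1, Sfrp2 and Sfrp4 lie far to the right in parietal mesothelium, with Sfrp4 at 8.18 and 8.23 in visceral and 10.96 and 10.42 in parietal mesothelium, while most ligands have nearly the same signal in both.

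Of the 19 ligands, 3 were called (15.8%, where 9.6% of all genes were). Wnt2, a ligand of the beta-catenin pathway known from lung development, had log2 signals of 8.87 and 8.54 on the visceral arrays, against 7.04 and 7.21 on the parietal arrays. Both visceral arrays lay more than a log2 unit above both parietal ones, and the difference was 1.58 (standard error 0.14, 2.98-fold, adjusted p = 0.00139 from limma). Wnt4, a ligand of kidney and gonad development, measured 9.95 and 9.76 in visceral and 9.09 and 8.92 in parietal mesothelium. Its visceral arrays were the higher ones and its difference was 0.85 (standard error 0.11, 1.80-fold, adjusted p = 0.00588). Wnt4 was the only member with a second probe, which read 9.46 and 9.44 in visceral and 8.20 and 7.67 in parietal mesothelium, a larger difference of 1.51 in the same direction. Wnt7b, a ligand made by many epithelia, measured 7.26 and 7.08 in visceral and 7.71 and 7.95 in parietal mesothelium. Its groups did not overlap, but the difference of -0.66 (standard error 0.12, 1.58-fold, adjusted p = 0.0187) is the smallest of the called ones.

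The other 16 ligands did not pass, with log2 differences between -0.25 and 0.35. For 15 of them the 95% interval of the difference in signal lay inside a fold of 1.5 in either direction. The exception was Wnt2b, which read 12.56 and 12.65 in visceral and 12.16 and 12.35 in parietal mesothelium (difference 0.35, interval 0.10 to 0.60, adjusted p = 0.0847). Wnt5a, the best known ligand of the Ror receptors, read 9.42 and 9.26 in visceral and 9.44 and 9.21 in parietal mesothelium. Its groups overlapped fully, and the difference of 0.01 had an interval whose upper end was 0.30. Wnt11, another ligand of planar polarity, had a difference of 0.23, and Wnt9a, known from joint formation, one of -0.06. The remaining values were -0.25 for Wnt1, -0.04 for Wnt3, 0.03 for Wnt3a, -0.09 for Wnt5b, 0.13 for Wnt6, -0.21 for Wnt7a, -0.03 for Wnt8a, -0.04 for Wnt8b, -0.09 for Wnt9b, -0.25 for Wnt10a, 0.06 for Wnt10b and -0.16 for Wnt16. Of the ligands, 12 of 19 had a mean signal at or under the median of all genes, 7.73. The intervals are of array signal, and how far background limits them for dim genes was not tested.

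The Frizzled receptors, which bind WNT ligands with a cysteine-rich domain outside the cell, split by tissue. Fzd1 read 11.08 and 11.46 in visceral and 9.88 and 10.13 in parietal mesothelium. Its visceral arrays were both above its parietal ones, with a difference of 1.26 (standard error 0.16, 2.40-fold, adjusted p = 0.00497). Fzd3, which is needed for planar polarity and axon guidance, read 9.06 and 8.79 in visceral and 8.33 and 7.93 in parietal mesothelium, a difference of 0.80 (standard error 0.16, 1.74-fold, adjusted p = 0.0280). Its groups did not overlap, but its arrays scattered within a tissue, with standard deviations of 0.19 in visceral and 0.28 in parietal mesothelium. The call for Fzd3 was lost when visceral replicate 1 (difference 0.66), visceral replicate 2 (0.93) or parietal replicate 2 (0.60) was left out.

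In the other direction, Fzd4, which is also the receptor of norrin in blood vessels, read 9.87 and 9.60 in visceral and 10.70 and 10.68 in parietal mesothelium. All parietal values were higher (difference -0.95, standard error 0.11, 1.93-fold, adjusted p = 0.00438). Fzd7 read 9.35 and 9.29 in visceral and 10.25 and 10.08 in parietal mesothelium, with a difference of -0.85 (standard error 0.10, 1.80-fold, adjusted p = 0.00373). Endothelial markers had means over 6 genes of 7.67 to 7.79 in visceral and 7.78 to 7.82 in parietal mesothelium, and 1 of the 6 was called, higher in parietal. Of the 6 Frizzleds that did not pass, Fzd6 came nearest, at 8.55 and 8.42 in visceral and 8.86 and 8.84 in parietal mesothelium (difference -0.36, adjusted p = 0.0501). Fzd2 had a difference of 0.23, Fzd5 of -0.28, Fzd8 of -0.36, Fzd9 of -0.19 and Fzd10 of -0.03. Of these, only the interval of Fzd8 reached past a fold of 1.5, to -0.69.

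The Ror receptors are tyrosine kinases that carry a Frizzled-like domain and bind Wnt5a. Ror1 read 10.71 and 10.63 in visceral and 9.73 and 9.43 in parietal mesothelium. The groups lay well apart, with a difference of 1.09 (standard error 0.12, 2.13-fold, adjusted p = 0.00348). Ror2 read 9.33 and 9.43 in visceral and 8.87 and 8.77 in parietal mesothelium. Its difference of 0.56 passed on p (adjusted p = 0.0124) but at 1.47-fold fell just short of the fold, and its interval, 0.34 to 0.78, reached past it. It was called without visceral replicate 1 (0.61) and without parietal replicate 1 (0.61).

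**Figure D2:**
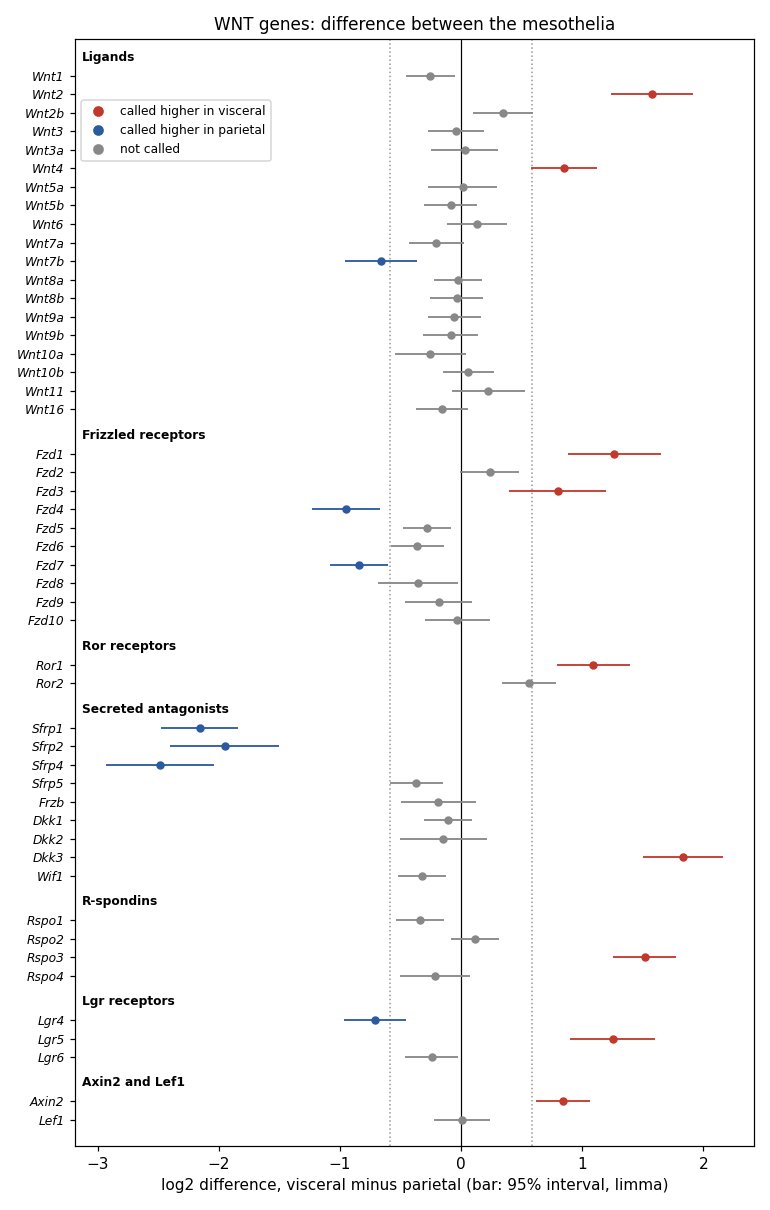
The x axis gives the log2 difference of visceral minus parietal mesothelium for the 49 WNT genes (y axis, by class), with 95% intervals from limma as bars and dotted lines at a fold of 1.5. Red genes were called higher in visceral, blue in parietal mesothelium and grey ones were not called; Sfrp4 lies farthest to the left at -2.49 and Dkk3 farthest to the right at 1.83.

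The largest differences of the family were in the class of secreted antagonists. Those of Sfrp4, Sfrp1 and Sfrp2 ran towards parietal mesothelium, and that of Dkk3, listed with them, towards visceral mesothelium. Sfrp proteins resemble the ligand-binding domain of a Frizzled receptor and hold WNT proteins outside the cell. Sfrp4 read 8.18 and 8.23 in visceral and 10.96 and 10.42 in parietal mesothelium. The parietal arrays were higher by more than 2 log2 units throughout, with a difference of -2.49 (standard error 0.18, 5.60-fold, adjusted p = 0.000766). Sfrp1 read 8.61 and 8.74 in visceral and 10.99 and 10.68 in parietal mesothelium, a difference of -2.16 (standard error 0.13, 4.47-fold, adjusted p = 0.000400). Sfrp2 read 11.02 and 10.48 in visceral and 12.75 and 12.66 in parietal mesothelium, a difference of -1.95 (standard error 0.18, 3.87-fold, adjusted p = 0.00175). In each of these genes the lower parietal array stood above the higher visceral array by more than a log2 unit. Sfrp5, a relative known from adipose tissue, read 6.30 and 6.41 in visceral and 6.69 and 6.76 in parietal mesothelium. Its difference of -0.37 passed on p (adjusted p = 0.0452) but not on the fold, at 1.29. The mean over 6 adipocyte genes was 6.88 to 7.01 in visceral and 7.24 to 7.79 in parietal mesothelium, with 1 of the 6 called, in the parietal direction. The parietal arrays were unlike, with a mean of 7.79 on replicate 1 and 7.24 on replicate 2. Adipoq read 7.5 and 6.0 on them, while the called gene, Plin4, read 8.2 and 8.6. Sfrp1, Sfrp2 and Sfrp4 are also made by fibroblasts. Among 8 fibroblast genes, 1 had a visceral and 4 had a parietal excess, and their mean signal was 11.67 to 11.68 in visceral and 11.96 to 12.10 in parietal mesothelium. The part of fibroblasts in the Sfrp differences was not tested.

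Dkk3, a divergent secreted member of the Dickkopf family whose place in the WNT pathway is not settled, went the other way. It read 10.57 and 10.79 in visceral and 8.98 and 8.71 in parietal mesothelium. The visceral arrays were higher by more than 1.5 log2 units, with a difference of 1.83 (standard error 0.13, 3.56-fold, adjusted p = 0.000753). The Dickkopf proteins that block the co-receptors did not pass. Dkk1 had a difference of -0.11, and Dkk2 one of -0.15 with overlapping groups. Frzb, a relative of the Sfrp proteins, had a difference of -0.19. Wif1, which binds WNT proteins through a domain of its own, read 6.56 and 6.53 in visceral and 6.88 and 6.85 in parietal mesothelium (difference -0.32, adjusted p = 0.0525). Of the 9 antagonists 4 were called (44.4%, where 9.6% of all genes were). These were the antagonists with a mean signal above the median of all genes.

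The R-spondins did not move as a group. Rspo3, known for its role in blood vessels and in the stem cell niche of the gut and other epithelia, read 8.18 and 8.30 in visceral and 6.63 and 6.83 in parietal mesothelium. The groups were far apart relative to their spread, with a difference of 1.52 (standard error 0.11, 2.86-fold, adjusted p = 0.000653). Rspo1 read 12.32 and 12.33 in visceral and 12.65 and 12.67 in parietal mesothelium. Its arrays nearly coincided within each tissue, and the difference of -0.34 passed on p (adjusted p = 0.0423) at a fold of 1.27, under the fold required. Rspo2, an R-spondin of limb and lung development, had a difference of 0.11, and Rspo4, known from nail development, one of -0.21.

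Of the R-spondin receptors, Lgr5, a marker of epithelial stem cells in the gut and itself a target of beta-catenin, was higher in visceral and Lgr4 higher in parietal mesothelium. Lgr5 read 10.30 and 9.94 in visceral and 8.78 and 8.96 in parietal mesothelium, a difference of 1.25 (standard error 0.14, 2.38-fold, adjusted p = 0.00369). Lgr4 read 8.20 and 8.21 in visceral and 8.81 and 9.02 in parietal mesothelium, a difference of -0.71 (standard error 0.10, 1.64-fold, adjusted p = 0.00836). Neither gene had overlapping groups. Lgr6, a marker of stem cells in the skin, had a difference of -0.24 (adjusted p = 0.149).

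Axin2, a scaffold of the complex that degrades beta-catenin and a widely used target gene of the pathway, read 9.65 and 9.75 in visceral and 8.81 and 8.92 in parietal mesothelium. The visceral arrays were higher without overlap, with a difference of 0.84 (standard error 0.09, 1.79-fold, adjusted p = 0.00316). Lef1, a transcription factor that acts with beta-catenin, read 6.46 and 6.39 in visceral and 6.34 and 6.49 in parietal mesothelium. Its groups overlapped and its difference was 0.01, with an upper interval end of 0.24.

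The sequences before the gene starts were read for letters that Tcf and Lef factors prefer, CTTTGAT and CTTTGAA, on both strands. These motifs differ only in their last letter and cannot share a position. RefSeq promoter sequences of GRCm38.p6 were at hand for 35 of the 49 genes, with 41 promoters, and the 250 bases before each start were searched. A motif was found in 3 of the 41 (7.32%), near the share of 7.48% among 32851 promoters of the table. The called genes had 5 promoters for those higher in visceral and 4 for those higher in parietal mesothelium, and none of these 9 held a motif. The motifs found were before 1 start each of Dkk1, Wnt5b and Wnt11, none of them called. A match describes letters and is not a binding site, and its lack in so short a window says nothing about the factors. The promoters of Axin2, of Sfrp2 and of Dkk1 are shown as a target gene called higher in visceral mesothelium, an antagonist called higher in parietal mesothelium and a gene with a motif, which is in capitals and starts 117 bases before the Dkk1 start.
Axin2 (chr11:108920099-108920348, + strand): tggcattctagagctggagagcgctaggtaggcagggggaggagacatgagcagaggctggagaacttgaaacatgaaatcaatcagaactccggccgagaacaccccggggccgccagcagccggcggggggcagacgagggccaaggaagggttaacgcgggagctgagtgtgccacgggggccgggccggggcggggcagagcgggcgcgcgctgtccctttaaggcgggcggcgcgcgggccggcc
Sfrp2 (chr3:83766071-83766320, + strand): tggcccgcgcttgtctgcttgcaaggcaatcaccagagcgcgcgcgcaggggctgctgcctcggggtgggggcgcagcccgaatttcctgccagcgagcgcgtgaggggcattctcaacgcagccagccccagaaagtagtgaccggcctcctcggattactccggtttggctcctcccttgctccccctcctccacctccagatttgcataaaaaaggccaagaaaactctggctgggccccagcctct
Dkk1 (chr19:30549497-30549746, - strand): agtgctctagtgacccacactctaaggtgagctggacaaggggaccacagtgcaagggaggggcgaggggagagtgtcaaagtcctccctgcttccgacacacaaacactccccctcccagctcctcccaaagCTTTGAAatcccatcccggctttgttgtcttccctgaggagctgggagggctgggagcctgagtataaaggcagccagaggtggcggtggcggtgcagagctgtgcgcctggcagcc

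Of 76 further genes of the pathway, listed by their roles, 7 were called with a visceral and 6 with a parietal excess, or 17.1% against 9.6% of all genes. Of the 58 with a mean signal above the median of all genes, 17.2% were called, against 13.9% of all genes above it. These lists too were chosen with earlier results of these data known. The called genes ran in both directions. Nkd1, which binds Dishevelled and restrains the signal, read 11.40 and 11.05 in visceral and 10.18 and 9.99 in parietal mesothelium (difference 1.14, adjusted p = 0.00487). Apcdd1, a membrane protein that inhibits WNT signaling, read 11.15 and 10.54 in visceral and 9.39 and 9.16 in parietal mesothelium (1.57, adjusted p = 0.00660). Tnfrsf19, a receptor whose gene responds to beta-catenin, read 8.73 and 8.72 in visceral and 7.69 and 7.66 in parietal mesothelium (1.05, adjusted p = 0.000890). None of the 3 had overlapping groups. Dact1, another protein that binds Dishevelled, had a difference of 1.47, Igfbp4, a binding protein of insulin-like growth factors that can also hinder WNT receptors, one of 1.66, and Ptk7, a receptor-like pseudokinase of planar polarity, one of 0.62. Of other genes known as targets or inhibitors, the ligases Znrf3 and Rnf43 had differences of 0.10 and 0.004, the secreted inhibitor Notum -0.10, the transcription factor Sp5 0.13, Myc 0.28 and Ccnd1 0.34, none of which passed, and the matrix protein Ccn4, named as a WNT1-induced gene, was higher in parietal mesothelium (-0.80, adjusted p = 0.00796), as were the antagonists Sfrp1, Sfrp2 and Sfrp4 described above. These genes were not fixed as a list, and nothing is read from their number.

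Of the 13 listed genes of planar polarity, 3 were called higher in parietal mesothelium, where 4.39% of all genes were, and none was called higher in visceral mesothelium. The formin Daam2 read 7.03 and 6.97 in visceral and 8.50 and 8.35 in parietal mesothelium (difference -1.43, adjusted p = 0.000525), and the atypical cadherins Celsr1 and Celsr2 had differences of -0.81 and -0.71. Invs, of the same list, had a difference of 0.47 that passed on p (adjusted p = 0.0341) but not on the fold. Ptk7 and Fzd3, which also act in planar polarity but stand in other groups here, were higher in visceral mesothelium. Vangl1 and Vangl2, core proteins of planar polarity, had differences of 0.04 and -0.11 with overlapping groups. The glypican Gpc3, which binds WNT ligands at the cell surface, had a difference of -0.74. Another glypican, Gpc6, was called in the visceral direction, with a difference of 0.62 (adjusted p = 0.0263 from limma). With an array left out, the difference of Gpc6 was 0.47 to 0.78. Its call was lost without visceral replicate 2 and without parietal replicate 1. Cthrc1, a secreted glycoprotein that links WNT ligands to their receptors, read 7.67 and 7.32 in visceral and 10.31 and 9.12 in parietal mesothelium (-2.22, adjusted p = 0.0152). Its parietal arrays differed by more than a log2 unit from each other, and its call was lost without visceral replicate 1 and without visceral replicate 2. The call for Celsr2 was lost without visceral replicate 2 and without parietal replicate 1. The parts that most cells share showed small differences: 0.13 for Lrp5, -0.18 for Lrp6, -0.05 for beta-catenin (Ctnnb1), 0.04 for Apc, 0.32 for Wls, which carries WNT proteins to the surface, and 0.23 for Porcn, which attaches their lipid; none passed.

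**Figure D3:**
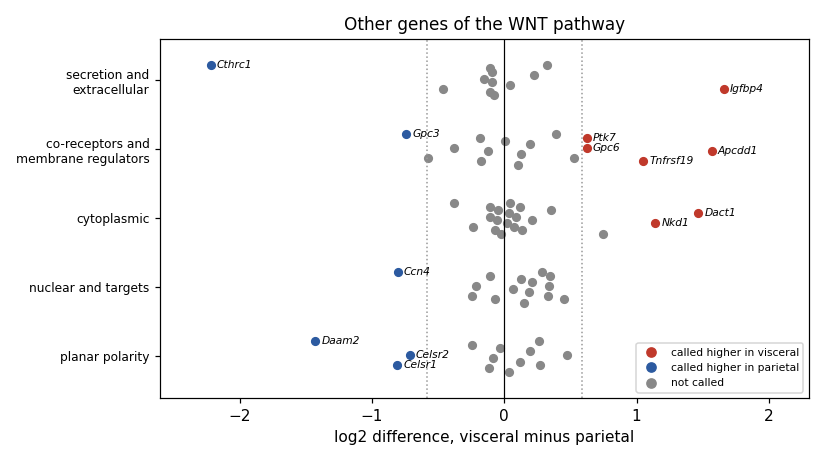
The x axis gives the log2 difference of visceral minus parietal mesothelium for 76 further genes of the WNT pathway in 5 groups by role (y axis; the scatter within a group has no meaning). Called genes are coloured and named, with Igfbp4 at 1.66 on the visceral side and Cthrc1 at -2.22 on the parietal side; dotted lines mark a fold of 1.5.

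The calls held to different degrees when an array was left out. In the comparison over the 19938 genes, 14 of the 16 genes were called in all 4 such settings, and the others were Fzd3, given above, and Wnt7b. Wnt7b was lost without visceral replicate 2 (difference -0.57) and without parietal replicate 2 (-0.54). With all 35556 probes of the table in the fit, including those with no gene name, and an array left out in addition, fewer calls remained. Leaving out visceral replicate 1 kept 10, visceral replicate 2 kept 8, parietal replicate 1 kept 6 and parietal replicate 2 kept 5. These last 5, Wnt2, Rspo3 and Dkk3 on the visceral and Sfrp1 and Sfrp4 on the parietal side, were called in every setting that left out an array. None of the 16 differences changed sign in any of them.

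**Figure D4:**
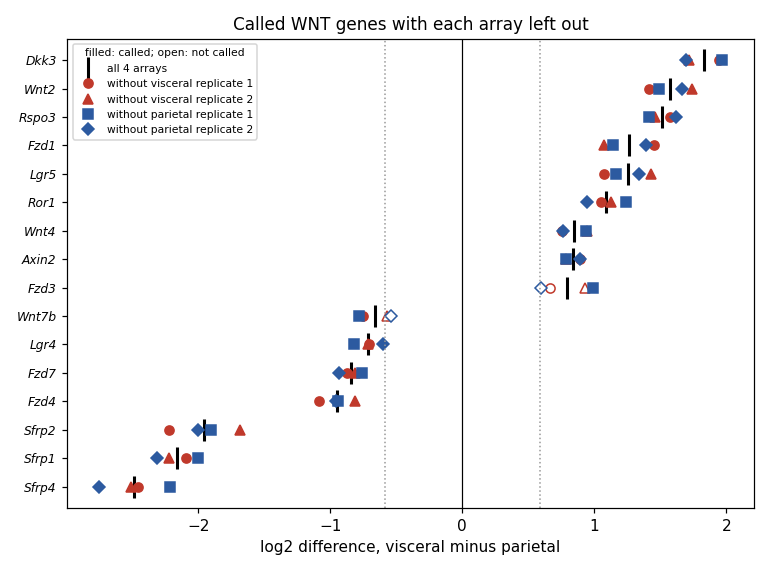
The x axis gives the log2 difference of visceral minus parietal mesothelium for the 16 called WNT genes (y axis) with all 4 arrays (bars) and with each array left out (symbols, filled where called and open where not). The differences keep their side throughout, and open symbols occur for Fzd3 and Wnt7b.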

How the data were processed

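RNA of visceral mesothelium (2 arrays) and parietal mesothelium (2 arrays) was hybridized to Affymetrix Mouse Gene 1.0 ST arrays. The authors normalized the arrays by RMA and deposited log2 values; the submitters' processing notes name Partek 6.6. The array library version is not given in the sources used here. Array medians were 7.38 to 7.41, and the small number of arrays limits the precision.

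The deposited log2 values were used unchanged. Of 35556 probes, 21789 had 1 gene symbol in the platform annotation, 1621 several and 12146 none; symbols were checked by gene identifier against a RefSeq table of GRCm38.p6, and 21698 matched with 0 changed. Probes with several symbols were not used. The probe with the highest mean was kept for each of 19938 genes.

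Tissues were compared over all genes with limma 3.58.1 in R 4.3.3 (lmFit and eBayes, two-sided, no block). The call needed a Benjamini-Hochberg adjusted p below 0.05 together with a 1.5-fold difference. No test was run on a list. The fit was tested on simulated data. The members and lists were chosen with earlier results of these data known. All members are named, those called or clearly apart with every array's value, and up to 6 other called pathway genes in each direction by adjusted p. Gpc6 is named in addition, beside Gpc3. Of the pathway lists, Tcf7 is not analysed here. Alternatives were other call rules, the methods' t-test, variance priors, normalizations, filters on dim probes, choices of probe, a block for the replicate number, and fits with an array left out. Fits of all probes with an array left out were added after seeing the data. Promoter sequences were those of RefSeq for GRCm38.p6.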

Additional observations from a re-analysis of the deposited data

How the results depend on the processing

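The 16 calls of the WNT genes were the same with a trend or robust variance prior, under quantile normalization, cyclic loess and median centring, and without genes under the first quartile of signal. Under a minimum fold of 2, 6 of the genes higher in visceral and 3 of those higher in parietal mesothelium remained, with 978 calls over all genes and 7 among the other pathway genes. limma's test against a fold of 1.5 gave 3 and 3, with 724 and 4. The methods' t-test, recomputed here over the 19938 genes with Benjamini-Hochberg adjustment, called 0 and 0. It called 0 of all genes and 0 of the other pathway genes (lowest adjusted p 0.0861). The authors report probes that passed in their own run in Partek, which was not repeated here. Unadjusted, the recomputed t-test gave 15 of the WNT genes, all but Fzd3, and 1582 of all genes. limma gave 26 of the 49 WNT genes and 5408 of all 19938 genes an unadjusted p under 0.05. Wnt7b and Fzd3 were lost with all probes in the fit, and Wnt7b and Rspo3 were left out with the genes under the median signal. Without 1 array, over genes or over all probes, the calls ranged from 3 to 10 higher in visceral and from 2 to 7 higher in parietal mesothelium, from 684 to 2095 over all genes and from 4 to 14 among the other pathway genes; the low ends belong to fits of all probes.

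The labels number the arrays of both tissues, but do not say that a number marks a shared animal. The paper's methods describe both mesothelia as taken from the same group of mice, without saying which arrays share a mouse. Pairing therefore cannot be settled here, and the main comparison left it out. The deviations of same-numbered arrays correlated at 0.356 across genes. With the replicate block, the same 16 WNT genes and 2008 genes in all were called, against 1915 without it.

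Of the genes that were not called, some had differences near 0 whose sign changed. Wnt5a was -0.035 under quantile normalization, -0.031 under cyclic loess and -0.009 under median centring, Wnt8a was 0.005 under cyclic loess and Lef1 -0.012 under median centring. Leaving out 1 array gave -0.13 to 0.043 for Wnt3, -0.10 to 0.15 for Wnt3a, -0.10 to 0.13 for Wnt5a, -0.10 to 0.024 for Wnt8b, -0.11 to 0.001 for Wnt9a, -0.16 to 0.093 for Fzd10, -0.35 to 0.054 for Dkk2 and -0.063 to 0.08 for Lef1. Of the 49 genes, 24 had a signal at or under the median of all genes; 2 of these were called, against 14 of the 25 above it (56%, where 13.9% of all genes above it were called), and how far the background of the arrays limits the dim genes was not tested.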
